A study of Mus musculus with 6 samples.

Results

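The listed N6-methyladenosine (m6A) positions of Cd44, Epcam and Sox9, genes of markers that the study follows in hepatocellular carcinoma (HCC)-initiating cells (HCICs), are described here in MTH-WT and MTH-D cells. Members were chosen by place alone, as every row of the deposited table inside the span of each gene on GRCm39. With positions counted from 0, the spans were chr2:102641486-102732010 for Cd44, chr17:87943407-87958557 for Epcam and chr11:112673050-112678586 for Sox9. They held 110, 0 and 79 positions, which makes 189 of the 567667 rows listed in all. No measured value entered this rule, though the genes were chosen with earlier results of these data known.

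The study weakened p53 activation in mice and cultured HCICs from livers of males that had received the carcinogen diethylnitrosamine (DEN) as pups. These cells came from control (CTL) mice and from double knock-in (DKI) mice, which carry wild-type p53 with the M2-C305F allele of MDM2 and the MX-3SA allele of MDMX, on a C57BL/6 background. MTH-D cells were single colonies that expressed Cas9 and a guide against Mthfd1l, which encodes a mitochondrial enzyme of one-carbon metabolism, after lentiviral infection and puromycin selection. MTH-WT cells were single colonies that had received the empty vector with Cas9. The 6 samples, 3 MTH-WT and 3 MTH-D numbered 1 to 3 in each group, were each sequenced as RNA on a separate nanopore flow cell. The labels give all 6 the same batch and do not say which number came from CTL or DKI cells. For the m6A sequencing the study's text names paired cells of the lines HCIC-1 and HCIC-3 alone, after setting aside MTH-D HCIC-2, which had only a small deletion in its transcripts. The study saw that deletion by nanopore direct RNA sequencing, so HCIC-2 cells were sequenced in this way too. The labels number 3 samples in each group without naming lines. Whether HCIC-2 is among them, and under which number, is thus not known. Some comparisons below are also given over the samples numbered 1 and 3 alone. The cells of both groups were grown from single colonies, so the knockout and the differences between colonies cannot be told apart. Whether each sample is a colony of its own is not given. The labels do not say whether the samples of a group came from separate animals, so p-values measure only the spread between these samples, which may be technical.

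The m6A mark is placed on adenosines of messenger RNA by the METTL3 and METTL14 methyltransferase, which uses S-adenosylmethionine as methyl donor, mostly in the motif DRACH (A, G or T, then A or G, then A, then C, then A, C or T) and most densely in long internal exons and near the stop codon. Reader proteins bind the mark and change the stability, export or translation of the transcript. Cd44 encodes a cell surface receptor for hyaluronan, whose variable exons are spliced in or left out. Epcam encodes an adhesion molecule of epithelial cells, and Sox9 encodes a transcription factor of the biliary and progenitor lineage. In liver, all of these are known as markers of progenitor-like or tumor-initiating cells. The question put to them here is whether their m6A differed between MTH-D and MTH-WT cells.

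The deposited value is the fraction of m6A at a position, given here in percent. Every row holds a value for each of the 6 samples, without the number of reads, so depth cannot be stated and intervals were not computed. The table gives no strand and no expression level, so hepatocyte identity could not be checked from it. Over the whole table MTH-WT samples averaged 6.96% ± 0.451 and MTH-D samples 6.84% ± 0.733 (SD, n = 3 each). Of all rows, 14.3% averaged at least 10% m6A over the 6 samples. At these 81446 positions MTH-D minus MTH-WT was -1.46 percentage points in the samples numbered 1, 0.970 in those numbered 2 and -1.79 in those numbered 3.

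Epcam had no listed position. The nearest rows lay 193258 bases before and 21643 bases after its window. The 4 coding transcripts of Epcam in GENCODE M21, an annotation of the older build GRCm38 from which only sequence counts and lengths were taken here, hold 6 to 38 DRACH motifs each. Because the table lists only positions with a value in all 6 samples, the empty window does not say whether Epcam transcripts were absent, too few in some samples, or unmethylated. No level and no comparison can be given for Epcam.

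Cd44 carried little m6A outside a few positions. Of its 110 listed positions, 89 averaged under 2%, and 7 averaged at least 10%, which is 6.36% of them against 14.3% of the whole table. The median of the position means was 0.585%, against 0.958% over the whole table. The highest position averaged 25.3%, and none reached 50%. Cd44 is read from the minus strand in GENCODE M21, so the lower coordinate is its 3′ end, and distances for Cd44 are counted from there. With a break wherever neighbours were over 500 bases apart, the positions formed 12 runs. The first run, 29 to 3142 bases from the 3′ end, held 68 positions and 6 of the 7 that averaged at least 10%. The other 11 runs held 1 to 6 positions each, and the longest coding transcript of the gene in GENCODE M21 has 19 exons. Whether a listed position lies in an exon, an intron or a UTR was not analysed here, since no annotation of GRCm39 was used. In GENCODE M21 an snRNA gene, Gm23731, overlaps Cd44 on the other strand, and without strand its reads could not be told apart from those of Cd44.

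**Figure D1:**
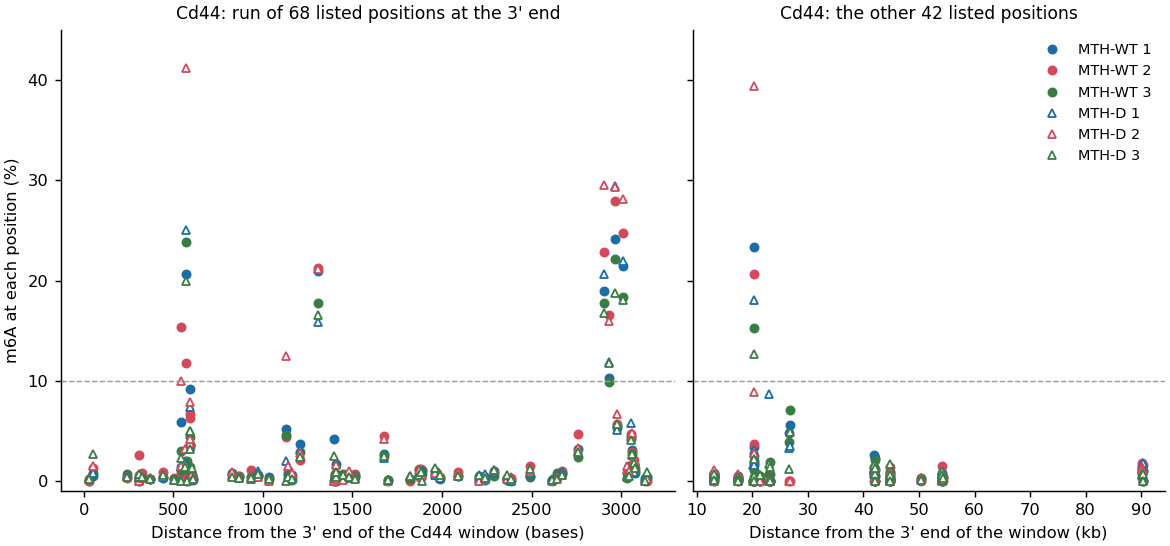
m6A in percent (y axis) at each listed position of Cd44 in 6 samples, against distance from the 3′ end of the gene window in bases (left, 68 positions) and in kb (right, the other 42). Filled circles are MTH-WT, open triangles MTH-D, colors give the sample number and the dashed line marks 10%. A group of 4 positions between 2903 and 3010 bases averages 12.7 to 25.3%, and the values of 41.2% and 39.4% of MTH-D 2 stand above all others.

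Among the 7 positions, 4 lay close together in the first run, from 2903 to 3010 bases. At 2966 bases from the 3′ end (chr2:102644453, counted from 1), the highest position of Cd44, m6A was 24.2, 28.0 and 22.2% in MTH-WT 1, 2 and 3 and 29.4, 29.4 and 18.7% in MTH-D 1, 2 and 3. At 3010 bases (chr2:102644497) the values were 21.4, 24.7 and 18.4% in MTH-WT and 21.9, 28.1 and 18.1% in MTH-D. At 2903 bases (chr2:102644390) they were 19.0, 22.9 and 17.7% in MTH-WT and 20.7, 29.5 and 16.8% in MTH-D. The groups overlapped at each of these positions, and MTH-D 3 was the lowest sample at each. The position between them, at 2930 bases (chr2:102644417), ran from 9.84 to 16.6% over the 6 samples and was lowest in MTH-WT 3.

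The other 3 positions stood alone. At 571 bases (chr2:102642058) m6A was 20.7, 11.8 and 23.8% in MTH-WT and 25.0, 41.2 and 20% in MTH-D. At 20287 bases (chr2:102661774), the only position outside the first run to average 10%, it was 23.3, 20.7 and 15.2% in MTH-WT and 18.03, 39.4 and 12.6% in MTH-D. At both, MTH-D 2 was far above the other 5 samples, among which the groups overlapped. At 1306 bases (chr2:102642793) m6A was 20.95, 21.3 and 17.8% in MTH-WT and 15.9, 21.1 and 16.6% in MTH-D. Here MTH-D was below MTH-WT in all 3 same-numbered pairs, with differences of -5.06, -0.14 and -1.18 points, and the groups still overlapped. It was 1 of the 7 positions to do so, and 16.4% of the positions averaging at least 10% in the whole table did.

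Over all 110 positions mean m6A of Cd44 was 2.32, 2.31 and 1.98% in MTH-WT 1, 2 and 3 and 2.23, 2.98 and 1.85% in MTH-D 1, 2 and 3. The group means of 2.20% ± 0.194 and 2.35% ± 0.576 (SD, n = 3 each) differed by 0.149 points, less than each group's SD (exact permutation test over samples, two-sided, p = 0.90). With 3 samples in each group this test cannot give a p below 0.10. Over the 7 positions averaging at least 10% MTH-WT averaged 19.6% ± 1.54 and MTH-D 22.0% ± 6.59 (SD, n = 3 each), which is 2.45 points apart (p = 0.80 by exact permutation). That difference rested on MTH-D 2, whose mean was 29.2% against 16.4 to 20.8% in the other 5 samples. Without MTH-D 2 it turned to -1.17 points, and over all 110 positions to -0.164 points. Within pairs, the 7 positions differed by 0.441 points in the samples numbered 1, by 8.40 points in those numbered 2 and by -1.49 points in those numbered 3.

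The samples numbered 2 also had more positions of Cd44 listed at exactly 0. These were 34 of 110 in MTH-WT 2 and 27 in MTH-D 2, against 13 to 15 in each of the other 4 samples. In Sox9 they were 21 of 79 in MTH-WT 2 but 13 in MTH-D 2, against 13 to 20 in the other 4 samples. A sample numbered 2 was the highest of the 6 at 6 of the 7 positions of Cd44 averaging at least 10%. It was so at 9 of 16 such positions of Sox9 and at 69.4% of those in the whole table. The part of depth in these values was not tested, since the fractions carry no coverage.

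In limma, with Benjamini-Hochberg adjustment over all rows, 0 positions of Cd44 and 0% of the whole table reached an adjusted p under 0.05. At an unadjusted p under 0.05 the count was 0 of 110, against 3.22% of all rows. The largest difference among the 7 positions, 9.97 points at 571 bases, had a log2 odds difference of 0.78 ± 0.50 (SE) and an adjusted p of 0.94 in limma. It was 3.75 points without MTH-D 2, 6.48 points without MTH-WT 2 and 0.25 points over the samples numbered 1 and 3. With all 6 samples it was the only position of Cd44 to differ by at least 5 points, while 9.28% of the positions averaging at least 10% in the whole table were higher in MTH-D by as much. All MTH-D samples lay below all MTH-WT samples at 3 positions of Cd44 and above them at 5, against 2.88 and 2.79% of all rows. Each of these 8 averaged under 2%.

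Sox9 carried both nearly complete and low m6A. Of its 79 listed positions, 16 averaged at least 10%, or 20.3% against 14.3% of the whole table. There were 5 positions that averaged at least 90%, or 6.33% of those listed in Sox9 against 0.892% of the whole table. These shares describe a single short gene whose positions share reads, and the difference from the whole table was not tested. The remaining positions were low, and 41 averaged under 2%. Sox9 is read from the plus strand and overlaps no other gene in GENCODE M21, and its distances are counted from the 5′ end of the window. The positions formed 3 runs, of 14 positions at 22 to 771 bases, of 5 at 1608 to 1738 bases and of 60 at 2488 to 5364 bases. The coding transcript of Sox9 in GENCODE M21 has 3 exons. It holds 81 DRACH motifs in 4135 bases, of which 2253 bases are 3′ UTR. Whether a listed position of Cd44 or Sox9 lies in a DRACH motif was not analysed here.

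**Figure D2:**
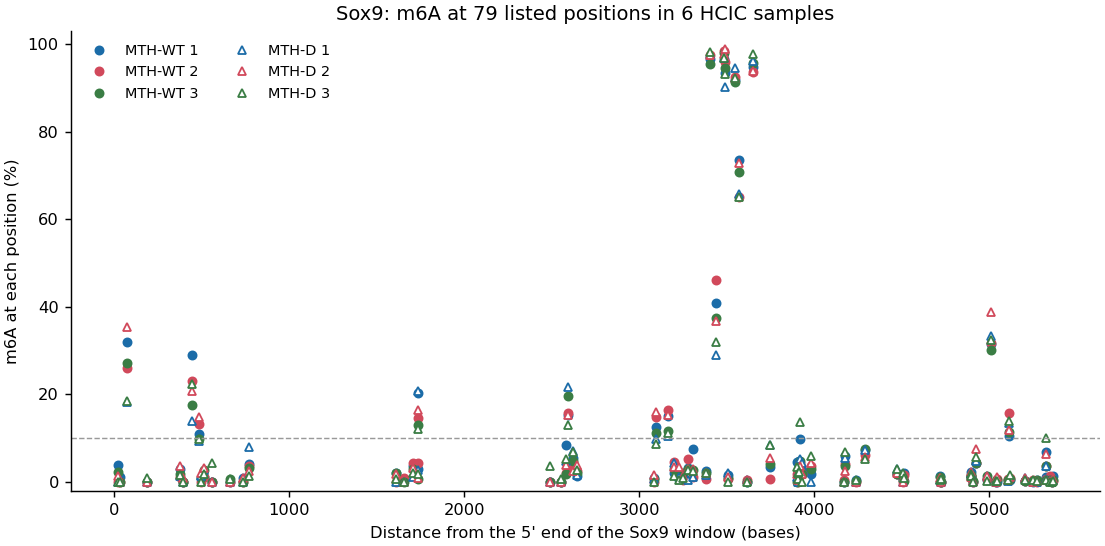
m6A in percent (y axis) at each of the 79 listed positions of Sox9 in 6 samples, against distance in bases from the 5′ end of the gene window. Filled circles are MTH-WT, open triangles MTH-D, colors give the sample number and the dashed line marks 10%. In all 6 samples the values from 90.2 to 98.9% stand between 3402 and 3652 bases, and no position outside that stretch averages over 33.0%.

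All 5 near-complete positions of Sox9 lay within a stretch of 251 bases that ended 1884 bases before the end of the window. At 3482 bases (chr11:112676533) m6A was 96.6, 98.5 and 98.1% in MTH-WT 1, 2 and 3 and 96.9, 97.9 and 97.0% in MTH-D 1, 2 and 3. At 3402 bases (chr11:112676453) it was 96.7, 97.6 and 95.5% in MTH-WT and 97.9, 97.6 and 98.2% in MTH-D. The groups overlapped at both, with differences of -0.467 and 1.31 points. At 3652 bases (chr11:112676703) the values were 94.8, 93.8 and 95.7% in MTH-WT and 96.3, 94.0 and 97.8% in MTH-D, so that MTH-D was higher in all 3 pairs, by 1.56, 0.20 and 2.13 points. Of the 16 positions, 2 were higher and 2 lower in MTH-D in all 3 pairs, against 9.07 and 16.4% of such positions in the whole table. At 3490 bases (chr11:112676541), only 8 bases from the highest position, they were 93.4, 95.9 and 94.7% in MTH-WT and 90.2, 98.9 and 93.2% in MTH-D. At 3549 bases (chr11:112676600) they were 91.9, 92.5 and 91.4% in MTH-WT and 94.6, 92.4 and 92.3% in MTH-D. None of the 5 separated the groups. Together they averaged 95.1% ± 0.509 in MTH-WT and 95.7% ± 0.488 in MTH-D (SD, n = 3 each), and the difference of 0.543 points was positive in 3 of 3 pairs (p = 0.20 by exact permutation).

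The same stretch held 4 further positions at quite other levels. At 3439 bases (chr11:112676490), between near-complete positions 37 and 43 bases away, m6A was 40.9, 46.1 and 37.5% in MTH-WT and 29.1, 36.8 and 32.1% in MTH-D. All MTH-D samples lay below all MTH-WT samples here, with pair differences of -11.8, -9.31 and -5.39 points. The difference of the group means, -8.84 points, was the largest of the 16 positions in size and the only one in Sox9 of at least 5 points, while 15.2% of the positions averaging at least 10% in the whole table were lower by as much. An exact permutation test of this position alone gave p = 0.10, the smallest that 3 samples against 3 allow. Any position whose groups do not overlap gives that p, and this one was named for its difference. In limma its log2 odds difference was -0.54 ± 0.28 (SE), with an adjusted p of 0.94. At 3570 bases (chr11:112676621) m6A was 73.6, 65.2 and 70.9% in MTH-WT and 65.7, 72.8 and 65.1% in MTH-D, which overlapped. The remaining positions of the stretch, at 3508 and 3614 bases, averaged 1.07 and 0.22%.

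The other 9 positions of Sox9 that averaged at least 10% had means from 11.3 to 33.0%. At 74 bases (chr11:112673125) m6A was 32.1, 26.2 and 27.2% in MTH-WT and 18.2, 35.4 and 18.5% in MTH-D, so that MTH-D 1 and 3 lay below every MTH-WT sample and MTH-D 2 above them all. At 445 bases (chr11:112673496) it was 29.1, 23.1 and 17.6% in MTH-WT and 13.9, 20.7 and 22.5% in MTH-D, which overlapped. The highest of the 9, at 5008 bases (chr11:112678059), is named here after its values were seen. Its m6A was 31.4, 31.8 and 30.2% in MTH-WT and 33.3, 38.8 and 32.4% in MTH-D. Every MTH-D sample lay above every MTH-WT sample, and the group means were 3.69 points apart. Groups of 3 that do not overlap always give p = 0.10 by exact permutation, so that p adds nothing here. Thus 1 of the 16 positions lay wholly lower and 1 wholly higher in MTH-D, where 3.38% and 2.07% of such positions in the whole table did.

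**Figure D3:**
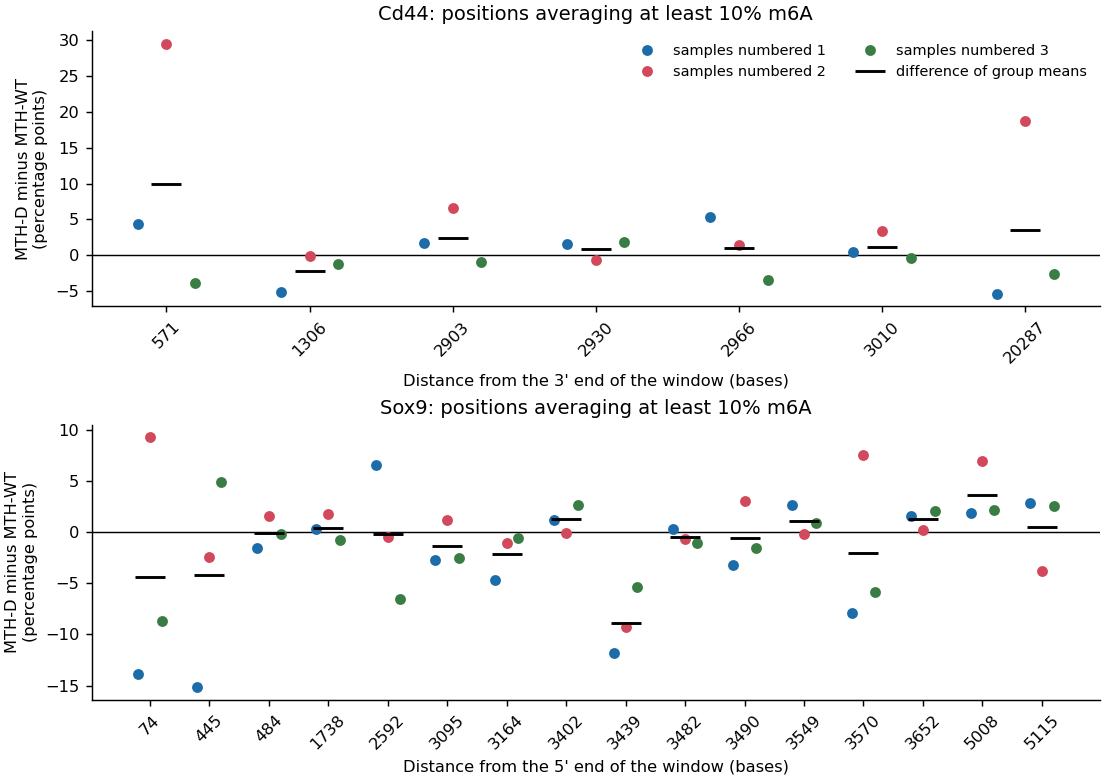
MTH-D minus MTH-WT in percentage points (y axis) at the 7 positions of Cd44 and the 16 of Sox9 that averaged at least 10% m6A, ordered by distance in bases from the 3′ end (Cd44) or 5′ end (Sox9) of the window. Points are same-numbered pairs and the black bars are differences of group means. In Cd44 the pair numbered 2 reaches 29.4 and 18.7 points, and in Sox9 all 3 pairs are negative at 3439 bases and positive at 5008 bases.

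Over all 79 positions mean m6A of Sox9 was 11.3, 10.7 and 10.5% in MTH-WT 1, 2 and 3 and 10.5, 11.2 and 10.7% in MTH-D 1, 2 and 3. The group means of 10.8% ± 0.441 and 10.8% ± 0.380 (SD, n = 3 each) were -0.0657 points apart (p = 0.70 by exact permutation, two-sided). The difference turned positive without MTH-WT 1, at 0.182 points, and without MTH-D 1, at 0.0895 points. Over the 16 positions averaging at least 10% MTH-WT averaged 47.1% ± 1.003 and MTH-D 46.1% ± 1.998 (SD, n = 3 each), with a difference of -0.979 points (p = 0.50 by exact permutation). This one stayed negative when any of the 6 samples was left out, from -2.13 points without MTH-D 2 to -0.342 points without MTH-D 3. Within pairs it was -2.71 points in the samples numbered 1, 0.874 in those numbered 2 and -1.10 in those numbered 3. As over the whole table, it was positive in the samples numbered 2 and negative in the others.

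In Sox9 the median spread was smaller at the near-complete positions than at those between 10 and 50%. Among the 5 near-complete positions the SD within a group had a median of 1.04 points and reached 4.44 points. Their differences between groups ran from -0.56 to 1.31 points. Among the 10 positions between 10 and 50% the median SD was 3.31 points and the highest 9.88 points. Their differences ran from -8.84 to 3.69 points. A fraction near 100% has little room to vary, so the sizes of differences at such unlike levels were not compared further. The 10 intermediate positions averaged 20.8% ± 1.65 in MTH-WT and 19.2% ± 2.58 in MTH-D (SD, n = 3 each, p = 0.40 by exact permutation). All positions of the table between these levels averaged 24.0% ± 2.33 and 23.3% ± 3.75 (SD, n = 3 each).

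The same limma fit called 0 positions of Sox9 and 0% of the whole table. At an unadjusted p under 0.05 there were 2 of 79, both higher in MTH-D, against 3.22% of all rows. They are named here after their values were seen. At 3748 bases (chr11:112676799) m6A was 3.38, 0.63 and 4.07% in MTH-WT and 8.46, 5.56 and 8.55% in MTH-D. At 3909 bases (chr11:112676960) it was 1.48, 0.59 and 1.33% in MTH-WT and 2.61, 2.45 and 2.01% in MTH-D. At both, every MTH-D sample lay above every MTH-WT sample, and the adjusted p was 0.94 in limma. All MTH-D samples lay above all MTH-WT samples at 7 of the 79 positions, against 2.79% of all rows, and below them at 3, against 2.88%. Of these 10 positions 8 averaged under 10%.

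**Figure D4:**
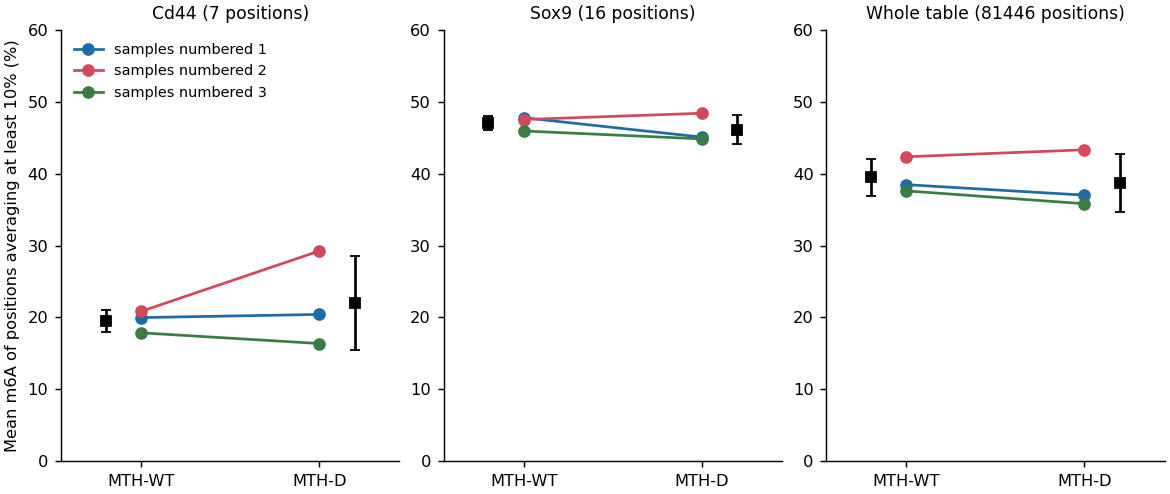
Mean m6A in percent (y axis) over positions averaging at least 10% in Cd44 (7 positions), Sox9 (16 positions) and the whole table (81446 positions). Circles are samples, joined within same-numbered pairs, and black squares with bars are group means ± SD (n = 3). In each panel the pair numbered 2 is higher in MTH-D, and MTH-D 2 stands apart in Cd44 at 29.2%.

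Between the genes, mean m6A over listed positions was higher in Sox9 than in Cd44 in 6 of 6 samples, at 10.5 to 11.3% against 1.85 to 2.98%. By this mean the genes differed by far more than any sample did from another within a gene, whereas the groups overlapped in both. The mean of Sox9 rested largely on the stretch of 251 bases, and its other 70 positions averaged 3.48 to 4.36% in the samples. Medians over positions were 1.09 to 1.97% in Sox9 and 0.49 to 0.55% in Cd44. In neither gene did the group means of MTH-D and MTH-WT differ beyond the spread between samples. The levels rest on m6A fractions only and say nothing of how much transcript or protein the cells held.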

How the data were processed

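Direct RNA libraries were made from 1000 ng of total RNA each and run on PromethION flow cells for 72 h at most. The file deposited by the authors gives a fraction per position, between 0 and 1. Their processing notes name minimap2 2.26, SAMtools and GRCm39. The basecaller, the modification caller and the coverage filter are not given in the sources used here. Of the rows, 3 repeat a position, none of them in these genes.

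Fractions were converted to percent. Group means per gene were compared by two-sided exact permutation over the samples. Positions were fitted with limma 3.58.1 in R 4.3.3 on log2 odds, after 1 percentage point was added to both shares, modified and unmodified, over all 567667 rows with Benjamini-Hochberg adjustment. Python 3.11.15 was used for the rest. The fit was tested on simulated data. The positions named by rule were the 6 highest of each gene and the 3 with the largest difference among those averaging at least 10%. Others were named for lying between these, or after their values were seen where so stated. The members, lists and rules were chosen with earlier results of these data known.

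Samples were grouped by their titles. Across the 81446 positions averaging at least 10%, the samples that share a number deviated together from their groups (r = 0.164, 0.223 and 0.133), so the numbers, which come from the labels, were also used as pairs. A gene-level limma fit, other progenitor markers, cell type markers, exon-only windows and coverage minimums were planned and not run, since they need an annotation of GRCm39 or read counts not used here.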

Additional observations from a re-analysis of the deposited data

How the results depend on the processing

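Over all listed positions of Cd44, MTH-D minus MTH-WT was 0.149 points and ran from -0.164 to 0.402 points when each sample was left out in turn. It was -0.110 points over the samples numbered 1 and 3. Over the positions of Cd44 averaging at least 10% the difference of 2.45 points ran from -1.17 to 5.27 points and was -0.524 points over the samples numbered 1 and 3. Both turned negative without MTH-D 2. For Sox9, the difference of -0.0657 points ran from -0.278 to 0.182 points, and the median over positions gave 0.103 points. Over the positions of Sox9 averaging at least 10% it ran from -2.13 to -0.342 points. With the replicate block the 4 differences equal the values above by arithmetic (exact sign-flip permutation test, p = 1.00, 0.75, 1.00 and 0.50 in the order given, where 3 pairs cannot go below 0.25), and no call changed.

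At 571 bases in Cd44 the difference of 9.97 points ran from 3.75 to 14.3 points when each sample was left out. Leaving out samples turned the sign at some other positions named by rule. In Cd44 it did so at 2903 bases (-1.12 to 5.25 points) and 2966 bases (-0.727 to 4.64 points). It also did so at 3010 bases (-1.49 to 3.52 points) and 20287 bases (-4.42 to 8.97 points). At 20287 bases the difference was -3.95 points over the samples numbered 1 and 3. In Sox9 leaving out samples turned the sign at 3490 bases (-2.98 to 1.39 points). At 3439 bases the difference stayed between -10.9 and -6.55 points. In limma 0 positions of either gene were called under any alternative run, the replicate block included. The same was true of the whole table, where 0 rows were called in each run. Over all rows the smallest adjusted p of a run lay between 0.0637 and 0.874 in limma. Among the positions of Cd44 and Sox9 it lay between 0.267 and 1.00. Of these positions, 0 to 3 of Cd44 and 0 to 12 of Sox9 had an unadjusted p under 0.05. The 12 were found over the samples numbered 1 and 3, where 7.40% of all rows had such a p. Across the runs, 2.47 to 7.40% of the rows fitted had such a p. The alternatives for positions averaging at least 10% and for single positions were chosen after seeing the data. Nothing could be computed for Epcam. As depth is unknown, the precision of a single position's value cannot be stated.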
